A study of Oryctolagus cuniculus with 34 samples.

Results

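Repaired rabbit supraspinatus muscle was compared here between 4 weeks and 2 weeks after surgical repair, in 9 of the 34 RNA-seq libraries of the series. Libraries were taken by their labels, as tenotomy with repair and a time code of 84 (4 libraries, rabbits 63, 66, 67 and 68) or 82 (5 libraries, rabbits 59, 60, 61, 62 and 64), read as 8 weeks of tenotomy and then 4 or 2 weeks after repair. The supraspinatus is a muscle of the rotator cuff, and the series follows it at 1, 2, 4 and 8 weeks post-repair to see how muscle that has been unloaded for weeks adapts once its tendon is fixed back. All animals were skeletally mature female New Zealand White rabbits of about 6 months, in which the left supraspinatus tendon was cut from the humerus, left free for 8 weeks and then sutured back through bone tunnels. Each rabbit's right supraspinatus served as control, which the methods call unoperated and the labels call a sham with a skin cut, and the control libraries of these same 9 rabbits are used below. RNA came from a small piece of the posterior lateral region, so each library is 1 place in the muscle of 1 rabbit, and the 4-week group lost a rabbit before repair.

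Muscle that loses its tendon attachment shortens and its fibres shrink, and the space between fibres takes up matrix, fat and immune cells. Fibro-adipogenic progenitors, stromal cells that carry PDGFRA, can make either fibrillar collagen or fat, and macrophages clear debris and signal to them. Contractile proteins, mitochondria and the proteasome, which degrades tagged proteins, belong mainly to the myofibre itself. In whole muscle, fewer cells of a type and less RNA per cell cannot be told apart.

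No gene was DE between 4 and 2 weeks in limma-voom. Of 12661 genes with CPM (counts relative to library size) over 1 in at least 1 of the 9 libraries, 0 (0%) passed an adjusted p of 0.05, and the lowest adjusted p was 0.193. At an unadjusted p under 0.05 there were 393 genes (3.10%), 229 higher and 164 lower at 4 weeks. edgeR also called 0 genes, with 495 at an unadjusted p under 0.05, whereas DESeq2 called 21 (0.166%), 15 of them DE with an absolute log2FC above 1. Without the 2-week library of rabbit 59, limma-voom called 0 of 12058 genes, with a lowest adjusted p of 0.0660 and 525 genes (4.35%) at an unadjusted p under 0.05, of which 266 were among the 393. The 95% interval of the log2FC lay within 1 either way for 53.8% of genes tested, for 66.8% without rabbit 59 and for 71.9% in the control muscle of the same rabbits. For the other genes a change of 2-fold or more in at least 1 direction was within the interval.

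Rabbits of the same time point differed widely. On the first principal component, which held 60.7% of the variance, rabbit 59 lay at 124 and rabbit 62 at 38.8, both at 2 weeks. The other 2-week rabbits, 61, 60 and 64, lay at -25.0, -34.4 and -46.4, and the 4-week rabbits 63, 67, 66 and 68 at 10.6, -4.31, -15.8 and -48.0. The 2-week libraries thus stood on both sides of every 4-week library except that of rabbit 68, and 6.28% of the spread on this component lay between the times. Over all genes 9.70% of the variance lay between the times, against 13.0% in the controls. With so few libraries some share lies between the groups even without an effect of time, and these shares were not tested.

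**Figure D1:**
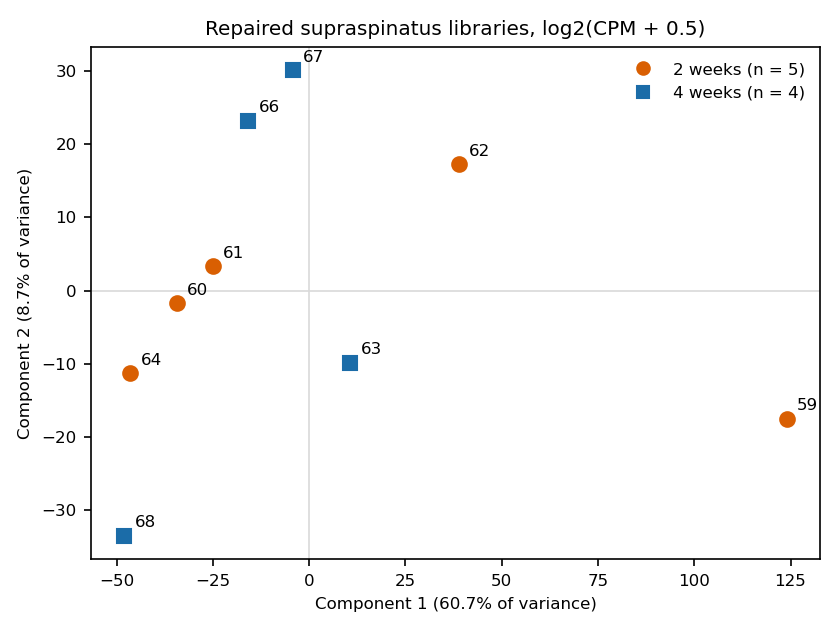
Principal components of log2(CPM + 0.5) over the 12661 genes tested in the 9 repaired muscles, each point 1 library labelled with its rabbit (circles 2 weeks, squares 4 weeks). Rabbit 59 stands at 124 on component 1, rabbit 62 at 38.8 and the other 7 libraries between -48.0 and 10.6.

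The library of rabbit 59 stood apart in several measures. Its correlation with any other repair library was at most 0.915, against at least 0.932 between the other 8, and 12091 genes passed 1 CPM in it against 10300 to 11498 in those. Total counts were 9220035 to 12332438 over the 9 libraries and did not set it apart, at 10421971. The biological coefficient of variation was 0.556 among the 5 repair libraries of 2 weeks, 0.368 without rabbit 59 and 0.256 without rabbits 59 and 62, against 0.310 at 4 weeks. In the controls it was 0.241 at 2 weeks and 0.315 at 4 weeks. The counts of calls, most list medians and part of the single genes are given with and without rabbit 59 for this reason.

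Symbols were at hand for 3309 of the genes tested (26.1%), and the 12 of smallest p in each direction are described by their values. LRRC30, a leucine-rich repeat protein, stood at 5.87, 6.46, 14.6, 10.2 and 12.5 CPM at 2 weeks in rabbits 59, 60, 61, 62 and 64, and at 16.6, 23.0, 21.3 and 43.6 CPM at 4 weeks in rabbits 63, 66, 67 and 68. Every 4-week muscle lay above every 2-week muscle. The log2FC of LRRC30 was 1.41 ± 0.35 (SE), or 1.22 without rabbit 59, and the adjusted p 0.970. In the control muscles LRRC30 spanned 9.68 to 14.8 CPM at 2 weeks and 15.7 to 24.02 CPM at 4 weeks, a log2FC of 0.67, so the right shoulders of the same animals were ordered in the same way and did not overlap either.

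TPPP, which encodes a protein that promotes tubulin polymerization, held 0.568, 1.19, 1.35, 0.823 and 1.07 CPM in the 2-week muscles of rabbits 59, 60, 61, 62 and 64. At 4 weeks it held 3.91, 7.63, 1.94 and 4.30 CPM in rabbits 63, 66, 67 and 68. These low levels did not overlap. The controls held 0.833 to 4.07 CPM, with a log2FC of 0.61, and the 4-week muscles of rabbits 63 and 67 lay within that range. The log2FC of TPPP was 2.05 ± 0.51 in limma-voom (adjusted p = 0.970) and 2.18 in DESeq2 (adjusted p = 0.00819), and TPPP was the only gene of the 21 DESeq2 calls that has a symbol here.

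WNT16, a secreted WNT ligand, gave 1.07, 6.76, 10.9, 3.71 and 1.56 CPM at 2 weeks and 7.33, 23.5, 21.1 and 24.1 CPM at 4 weeks, in the same order of rabbits. Rabbits 66, 67 and 68 lay above all 2-week muscles, and rabbit 63 fell among them. Its log2FC was 2.47 ± 0.63, or 2.02 without rabbit 59, and in controls the log2FC of WNT16 was 0.63 over a range of 3.58 to 10.7 CPM.

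DHRS4, a carbonyl reductase that acts on retinoids, stood at 34.5, 44.2, 35.5, 37.3 and 31.4 CPM at 2 weeks and at 51.9, 46.1, 59.02 and 56.3 CPM at 4 weeks. The groups did not overlap. Rabbits 63, 67 and 68 lay in the range of the controls, 49.8 to 82.3 CPM, while rabbit 66 and all 2-week muscles lay below it. Its log2FC was 0.55 ± 0.15 (0.54 without rabbit 59).

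TIGAR, a phosphatase that lowers fructose-2,6-bisphosphate and so holds back glycolysis, was even across the 2-week muscles at 9.85, 8.25, 9.09, 9.68 and 9.64 CPM. At 4 weeks it stood at 21.2, 17.4, 9.77 and 29.4 CPM in rabbits 63, 66, 67 and 68. Rabbit 67 remained at the 2-week level, below rabbit 59, and the other 3 were within the range of the controls, 12.2 to 37.6 CPM. The log2FC of TIGAR was 0.94 ± 0.29, and -0.13 in controls.

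RASGRF2, an exchange factor for small GTPases, lay at 1.14, 2.58, 2.03, 3.16 and 1.48 CPM at 2 weeks and at 5.18, 5.95, 6.18 and 2.54 CPM at 4 weeks. Rabbit 68 was within the 2-week range and the other 3 above it, and the log2FC was 1.32 ± 0.39. INPPL1, an inositol phosphatase that acts in insulin signalling, was at 101.3, 144, 123, 98.6 and 120 CPM and then at 158, 174, 157 and 179 CPM. Its groups did not overlap, at a log2FC of 0.52 ± 0.17. Beside these, EMC9, C12orf4, THNSL1, FUOM and NSMCE4A had a log2FC of 1.00, 0.79, 0.64, 0.50 and 0.40, and of 0.75, 0.67, 0.47, 0.47 and 0.36 without rabbit 59. All of them except EMC9, which overlapped between 39.7 and 39.8 CPM, were separate between the times.

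Among genes with a negative log2FC, CHD9, a chromatin remodelling helicase, stood at 62.2, 53.4, 63.5, 62.6 and 74.2 CPM at 2 weeks and at 45.9, 45.4, 48.6 and 40.5 CPM at 4 weeks. There was no overlap, and all 4-week muscles lay within the range of the controls, 30.6 to 49.05 CPM, while no 2-week muscle did. The log2FC of CHD9 was -0.47 ± 0.14 with rabbit 59 and -0.48 without it. PHC1, a Polycomb subunit, gave 11.7, 10.4, 9.19, 9.26 and 9.47 CPM and then 7.82, 6.21, 5.68 and 7.24 CPM, also without overlap, with a log2FC of -0.59 ± 0.17.

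GGCX, the gamma-carboxylase that depends on vitamin K, was at 34.4, 16.3, 14.5, 21.6 and 20.2 CPM at 2 weeks. At 4 weeks it lay in a tight range of 12.7, 11.9, 12.4 and 11.1 CPM, close to the 9.61 to 12.5 CPM of the controls. All 2-week muscles were above all 4-week muscles, with rabbit 59 highest, and the log2FC moved from -0.77 ± 0.24 to -0.58 without it. AKAP13, an anchoring protein of protein kinase A, was separate between the times as well, at a log2FC of -0.76 ± 0.25.

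For SH3RF1, a scaffold of JNK signalling, rabbit 59 was the exception among 2-week muscles. It held 17.5, 36.0, 25.5, 35.6 and 26.4 CPM at 2 weeks and 17.2, 18.9, 11.1 and 13.5 CPM at 4 weeks. Only rabbit 59 overlapped with the 4-week muscles, and the log2FC went from -0.87 ± 0.25 (adjusted p = 0.970) to -1.03 without it (adjusted p = 0.625). In controls SH3RF1 had a log2FC of -0.70. SMARCA1, an imitation-switch chromatin remodeller, stood at 20.8, 27.6, 29.5, 33.8 and 55.8 CPM and then 18.5, 18.5, 16.7 and 21.2 CPM, where rabbit 59 lay below rabbit 68, with a log2FC of -0.76, or -0.91 without rabbit 59.

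GADD45A, a stress gene raised in denervated and unloaded muscle, stood at 36.3, 45.9, 34.2, 54.2 and 42.5 CPM at 2 weeks and at 30.3, 18.9, 35.6 and 17.4 CPM at 4 weeks. Rabbit 67 overlapped with rabbit 61, and the log2FC was -0.77 ± 0.24. Its control range was 12.7 to 36.2 CPM, with a log2FC of -0.51. The remaining genes of the lower set, CNTLN, FAM124A, RHOU, RASL11B and PPP1R10, had a log2FC of -0.64, -0.85, -1.21, -0.82 and -0.54, and each overlapped in at least 1 rabbit.

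**Figure D2:**
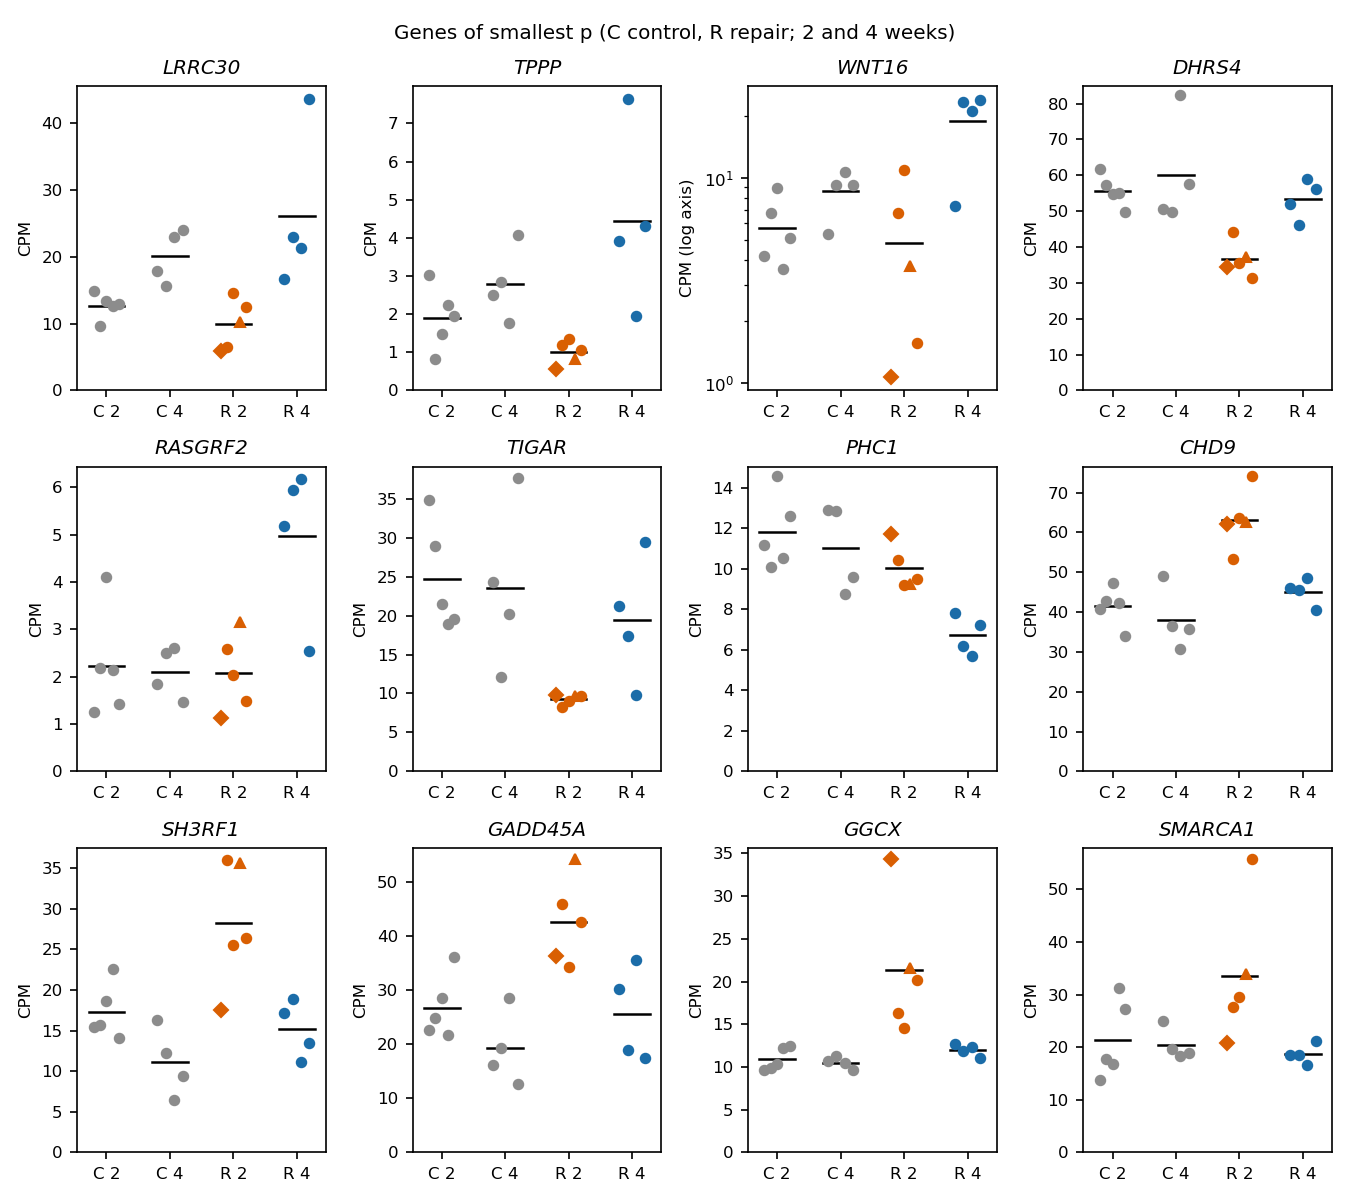
CPM of 12 genes of smallest p, by shoulder and time (C control, R repair, 2 or 4 weeks; n = 5 or 4), each point 1 library and each bar the group mean; among repaired muscles of 2 weeks the diamond is rabbit 59 and the triangle rabbit 62. WNT16 is on a log axis. The 2-week and 4-week repaired muscles are separate for LRRC30, TPPP, DHRS4, PHC1, CHD9 and GGCX, and in SH3RF1 and SMARCA1 rabbit 59 is the 2-week muscle that meets the 4-week range.

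These 24 genes were chosen for their p-values, so that choice fixed their direction, and all 24 had an adjusted p of 0.970. Over all genes tested, 198 (1.56%) did not overlap between the times, 85 higher (0.671%) and 113 lower (0.893%) at 4 weeks, and in control muscle 187 (1.64%) did not. Without rabbit 59 there were 360 (2.99%), 127 higher (1.05%) and 233 lower (1.93%). The sign of each of the 24 was the same in all 19 other fits run for it.

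Fibrillar collagens and the enzymes that process them differed more among rabbits of 1 time than between the times. COL1A1, a chain of type I collagen, stood at 14420, 86.2, 184, 3227 and 40.5 CPM in the 2-week muscles of rabbits 59, 60, 61, 62 and 64, and at 565, 325, 228 and 61.2 CPM in the 4-week muscles of rabbits 63, 66, 67 and 68. Rabbits 59 and 62 lay above every 4-week muscle, and rabbits 63, 66 and 67 lay above the other 3 muscles of 2 weeks. The controls held 34.6 to 103 CPM. The log2FC of COL1A1 was -0.96, with a 95% interval from -4.30 to 2.38, and 0.16 without rabbit 59. LOX, which crosslinks collagen, gave 422, 17.99, 13.5, 85.6 and 3.13 CPM and then 35.0, 13.7, 13.3 and 5.87 CPM, in the same order of rabbits within the 4-week group.

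Of the 20 tested members of this list, 0 were called (background 0%) and 19 had a negative log2FC, with a median of -0.73 beside -0.03 over all genes. The median was 0.07 without rabbit 59, with 12 positive and 8 negative, and 0.97 without rabbits 59 and 62. Written as a level, the median over members of log2(CPM + 0.5) minus the mean of the 9 controls, the list stood at 4.47, 0.18, 0.61, 2.84 and -0.39 at 2 weeks and at 1.82, 1.13, 1.24 and -0.08 at 4 weeks. Controls spanned -0.34 to 0.37 on this scale, so rabbits 59, 61, 62, 63, 66 and 67 lay above them, rabbits 60 and 68 within and rabbit 64 just below.

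Matrix glycoproteins and proteoglycans, 30 tested, had a like order, at 4.45, 0.11, 1.19, 3.08 and -0.32 at 2 weeks and 2.19, 1.12, 1.04 and -0.28 at 4 weeks. Their median log2FC was -0.66, -0.03 without rabbit 59 and 0.82 without rabbits 59 and 62. DCN, the proteoglycan decorin that binds collagen fibrils, lay at 1966, 219, 483, 1411 and 214 CPM and then at 804, 417, 471 and 185 CPM, and its groups overlapped over most of their range. Basement membrane and non-fibrillar collagens (19 tested) and matrix proteases and their inhibitors (22 tested) had a median log2FC of -0.19 and -0.30, and of 0.19 and 0.08 without rabbit 59. For basement membrane genes all 4 muscles of 4 weeks, at 0.43 to 1.16, were above the 9 controls, and 3 of the 5 of 2 weeks were. MMP12, a macrophage elastase, was at 32.7 CPM in rabbit 59, 2.06 in rabbit 62, 2.44 in rabbit 63 and at most 0.165 in the other 6 repaired muscles.

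PDGFRA, which encodes the receptor that marks fibro-adipogenic progenitors, stood at 186, 11.1, 18.2, 71.6 and 13.3 CPM at 2 weeks and at 33.8, 23.9, 29.8 and 8.81 CPM at 4 weeks. The range of the 4-week muscles lay inside that of the 2-week muscles but for rabbit 68, which was lowest of all 9. In controls PDGFRA held 7.60 to 17.9 CPM. The log2FC of PDGFRA was -0.56 ± 0.82 with rabbit 59 and 0.02 without it, and the 14 tested stromal markers had a median of -0.53 and of 0.13 without rabbit 59.

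Macrophage and other myeloid genes had the lowest median of the 22 lists in limma-voom with all 9 libraries, whereas fibrillar collagens were lower in edgeR (-1.88 against -1.59) and DESeq2 (-1.90 against -1.60) and 2 other lists were slightly lower without rabbit 59. CD163, a scavenger receptor of macrophages, was at 133, 3.48, 0.387, 19.6 and 0.330 CPM at 2 weeks and at 3.13, 1.26, 2.37 and 0 CPM at 4 weeks. MRC1, the mannose receptor, gave 125, 5.07, 3.97, 47.9 and 1.56 CPM and then 10.8, 5.12, 7.04 and 0.979 CPM. Both were highest in rabbits 59 and 62, and lowest in rabbit 68. Of 36 tested members 34 had a negative log2FC, with a median of -0.85, and the median was -0.09 without rabbit 59 and 0.58 without rabbits 59 and 62. C1QC, a complement subunit made by macrophages, changed sign, from -0.28 to 0.55 without rabbit 59, and LCP1, a leukocyte actin-bundling protein, went from -1.56 to -0.67.

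The summed markers of fibroblasts, myeloid cells and endothelium set rabbits 59 and 62 above the range of the 4-week and control muscles, and those of myofibres set both below it. Those of lymphocytes, of smooth muscle and pericytes and of Schwann cells set only rabbit 59 above it, and those of adipocytes only rabbit 62. Each sum is led by its most abundant markers, and single markers did not always follow it. Fibroblast markers, 4 of 4 tested, summed to 16720 CPM in rabbit 59 and 4790 in rabbit 62, against 279 to 709.8 in the other 3 muscles of 2 weeks, 265 to 1465 at 4 weeks and 212 to 463 in controls. COL1A1 made up 14420 CPM of the sum in rabbit 59. Myeloid markers, 7 of 7 tested, of which CD163 and C1QB were at 0 in at least 1 repaired muscle, summed to 487 and 128 CPM in rabbits 59 and 62, 3.06 to 51.2 at 4 weeks and 5.46 to 20.03 in controls. Apart from rabbit 59, ITGAM and C1QC reached 3.27 and 11.2 CPM at 2 weeks, within their 4-week ranges, unlike the other myeloid markers. The 3 lymphocyte markers summed to 11.6 CPM in rabbit 59 and to 2.10 to 6.79 in the other repaired muscles, with TRBC1 at 0 in at least 1 of these, against 1.88 to 3.41 in controls. ITGAL made up 7.95 CPM of the sum in rabbit 59. CD96 at 2 weeks, 0.994 to 2.47 CPM, lay within its 4-week range of 0.922 to 2.94 CPM. Endothelial markers summed to 669 and 317 CPM in rabbits 59 and 62, 201 to 277 at 4 weeks and 148 to 248 in controls. The lowest 2-week muscle, at 132 CPM, was below both of these ranges. VWF made up 525 CPM of the endothelial sum in rabbit 59. Among the other 2-week muscles VWF reached 202 CPM, above its 4-week highest of 131 CPM. CDH5 and ROBO4 reached 44.7 and 32.6 CPM in those muscles, within their 4-week ranges. TEK reached 42.1 CPM in them, against 41.8 CPM at 4 weeks. Smooth muscle and pericyte markers gave 313 CPM in rabbit 59, 152 to 217 at 4 weeks and 95.5 to 165 in controls. Their lowest 2-week muscle, at 75.4 CPM, was also below both ranges. Adipocyte markers gave 709.8 CPM in rabbit 62, 566 in rabbit 59 and 307 to 575 at 4 weeks. ADIPOQ made up 681 CPM of the sum in rabbit 62. LIPE, the other adipocyte marker, was at most 46.1 CPM at 2 weeks and spanned 12.6 to 135 CPM at 4 weeks. The 2 Schwann cell markers gave 5.11 CPM in rabbit 59 and 2.74 to 4.24 at 4 weeks. L1CAM made up 3.72 CPM of the sum in rabbit 59, while LGI4 was at most 1.44 CPM at 2 weeks and 1.73 CPM at 4 weeks. The 7 myofibre markers summed lowest in rabbit 59, at 9702 CPM, and in rabbit 62, at 15150, against 23080 to 42310 at 4 weeks and 20000 to 72320 in controls, so the markers of the labelled tissue were present in every library. MYH8 did not follow the sum, at 359 CPM in rabbit 59, the highest 2-week value. The part of these cell type markers in the change of any gene was not tested.

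**Figure D3:**
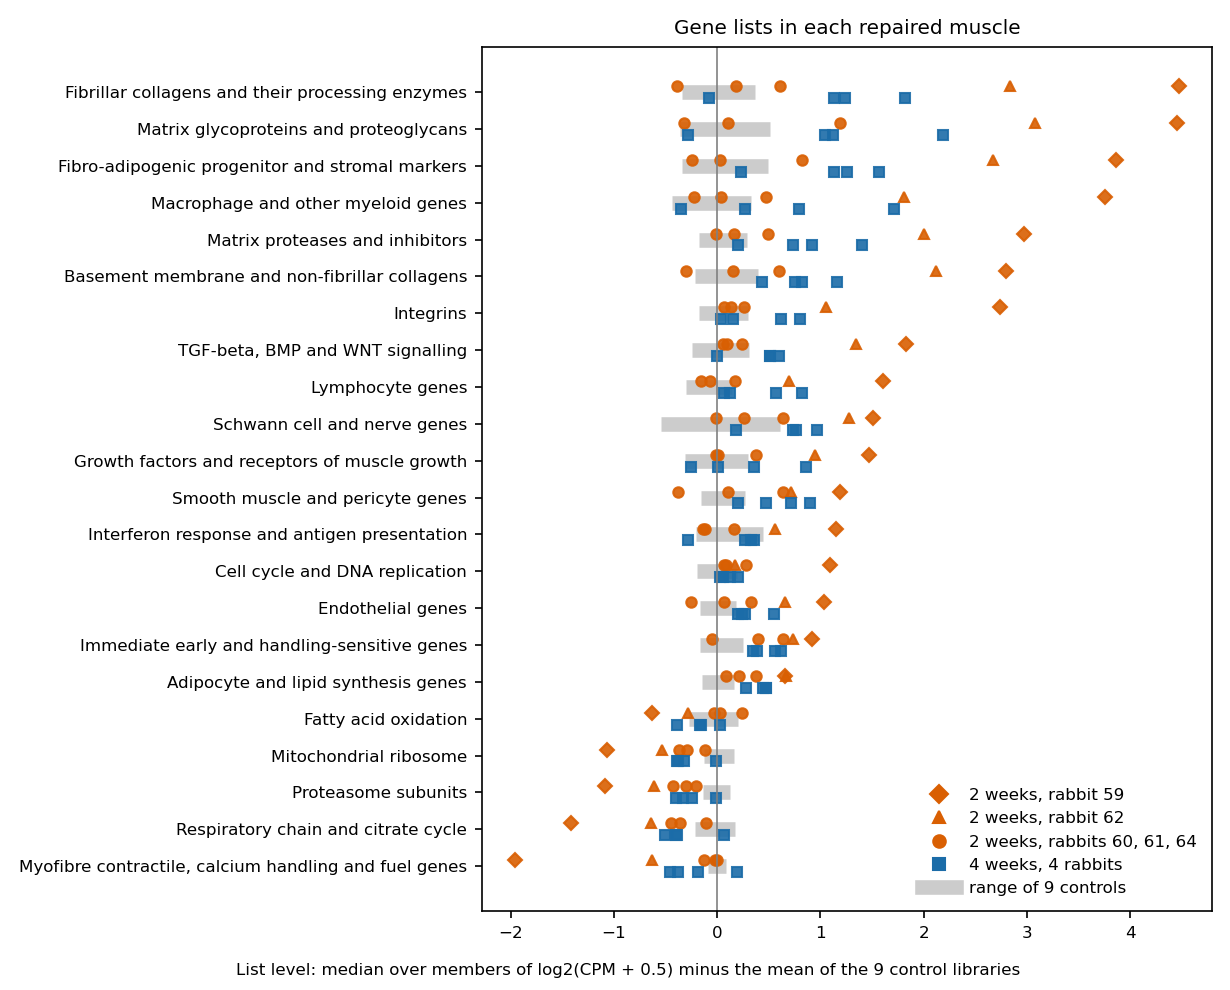
Level of each of 22 gene lists in the 9 repaired muscles, as the median over members of log2(CPM + 0.5) minus the mean of the 9 control libraries (diamonds, triangles and circles 2 weeks; squares 4 weeks; grey bars the range of the controls). Rabbit 59 is highest in all matrix and immune lists, at 4.47 for fibrillar collagens, and lowest in the myofibre, mitochondrial and proteasome lists.

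Among 29 tested genes of TGF-beta, BMP and WNT signalling, WNT16 was at an unadjusted p under 0.05 in the higher and ACVR2A, an activin receptor, in the lower direction. ACVR2A stood at 15.8, 8.05, 8.802, 10.02 and 9.06 CPM and then at 8.99, 5.95, 6.75 and 6.46 CPM, with rabbit 63 inside the 2-week range and the others below it. Its log2FC was -0.55 ± 0.24 and -0.37 without rabbit 59. WNT11, another WNT ligand, had a log2FC of 0.57 ± 0.30. LTBP2, a latent TGF-beta binding protein family member, gave 36.5, 2.19, 5.61, 19.6 and 2.80 CPM and then 2.83, 3.94, 3.67 and 1.17 CPM, with rabbits 59 and 62 above all others. Its log2FC was -1.60, and -0.23 without rabbits 59 and 62.

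The 16 tested growth factors and receptors of muscle growth had a median log2FC of -0.42, and -0.06 without rabbit 59. HGF, the ligand that activates satellite cells, was at 25.1 CPM in rabbit 59 and at 0.196 to 4.39 CPM in the other 8 muscles. IGF1R and FGFR4, the receptors for insulin-like growth factor 1 and for fibroblast growth factors in muscle precursors, had a log2FC of -0.56 and -0.42, and of -0.19 and -0.22 without rabbit 59.

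Myofibre genes were positive in 25 of 28 tested members, with a median log2FC of 0.28, which turned to -0.04 (11 positive, 17 negative) without rabbit 59. Their level was -1.96 in rabbit 59 and -0.63 in rabbit 62, -0.12 to 0.00 in the other 2-week muscles and -0.46 to 0.20 at 4 weeks. MYOM2, an M-band protein of the sarcomere, stood at 812, 2881, 2563, 1701 and 3172 CPM and then at 3398, 3343, 2695 and 4850 CPM. Rabbits 63, 66 and 68 lay above all 2-week muscles, and rabbit 67 did not. The log2FC of MYOM2 was 0.78 ± 0.43, 0.48 without rabbit 59, and -0.23 in controls. TCAP and DES, a Z-disc protein and the intermediate filament desmin, had a log2FC of 0.54 and 0.29, and of 0.11 and 0.00 without rabbit 59.

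MYH8, the perinatal myosin heavy chain that marks immature or regenerating fibres, held 359, 76.2, 26.9, 83.5 and 36.7 CPM at 2 weeks and 690, 178, 114 and 177 CPM at 4 weeks. All 4-week muscles lay above the 2-week muscles other than rabbit 59, which was the second highest of the 9. The log2FC of MYH8 was 1.67 ± 0.78 (adjusted p = 0.970), and 2.19 without rabbit 59 in limma-voom (adjusted p = 0.847) and 2.38 in DESeq2 (adjusted p = 0.0102). In controls MYH8 spanned 39 to 270 CPM at 2 weeks and 19.5 to 37.01 CPM at 4 weeks, with a log2FC of -1.48, and the difference between the shoulders was 3.14 ± 0.94 (unadjusted p = 0.00381, adjusted p = 1.00). That difference was fitted without pairing the shoulders of a rabbit.

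All 14 tested members of the proteasome list had a positive log2FC, from 0.18 to 0.48 with a median of 0.23, and all 14 were positive without rabbit 59 with a median of 0.14. PSMB9, a subunit outside this list, was not higher. It stood at 1.07 to 4.67 CPM (median 2.20) at 2 weeks and 0.503 to 2.16 CPM (median 1.91) at 4 weeks. PSMD7, a lid subunit of the 26S proteasome, stood at 67.9, 153, 136, 100.9 and 114 CPM at 2 weeks and at 142, 162, 142 and 178 CPM at 4 weeks. Rabbit 60 overlapped with the 4-week group and the controls lay at 149 to 210 CPM. PSMA4 and PSMD14 had a log2FC of 0.35 and 0.41, and the subunits share their libraries, so 14 of 14 is not 14 measurements. Mitochondrial ribosomal proteins, 25 of 27 positive, had a median of 0.20 and of 0.07 without rabbit 59, and MRPS23 and MRPS28 were at an unadjusted p under 0.05 with a log2FC of 0.41 and 0.64. Without rabbit 59 these were 0.33 and 0.44, and 0 members of this list were at an unadjusted p under 0.05. The respiratory chain and citrate cycle (21 tested) had a median of 0.28, or 0.09 without rabbit 59, and COX10, which makes the heme of cytochrome oxidase, had 0.49 ± 0.24, or 0.32 without rabbit 59. Fatty acid oxidation genes (17 tested) had 0.08, and -0.09 without rabbit 59.

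Adipocyte and lipid synthesis genes kept a small positive median, 0.18 over 30 tested members and 0.20 without rabbit 59. Of the members 17 were positive and 13 negative, down to a log2FC of -0.80, and 22 and 8 without rabbit 59. The members described next are all on the positive side. SCD, the desaturase that makes oleate, stood at 95.7, 92.3, 38.4, 149 and 32.4 CPM at 2 weeks and at 263, 479, 385 and 29.4 CPM at 4 weeks. Rabbits 63, 66 and 67 were above every 2-week muscle and rabbit 68 below all of them. Controls held 3.77 to 29.1 CPM, just below rabbit 68. The log2FC of SCD was 1.46 ± 0.79 in repaired muscle and 1.35 in controls. LIPE, the hormone-sensitive lipase, also had rabbits 63, 66 and 67 highest and rabbit 68 lowest, at 16.7, 46.1, 27.7, 28.4 and 20.2 CPM and then 75.5, 73.5, 135 and 12.6 CPM, with a log2FC of 1.07 ± 0.60.

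THRSP, a regulator of lipid synthesis, gave 1.45, 5.27, 3.29, 3.84 and 1.73 CPM and then 7.72, 7.80, 22.2 and 1.57 CPM, again with rabbit 68 low, at a log2FC of 1.43. ADIPOQ, the adipokine adiponectin, stood at 549, 118, 266, 681 and 102 CPM and then 500, 328, 389 and 294 CPM, with all repaired muscles but those of rabbits 60 and 64 above the controls of 69.2 to 166 CPM. Its 4-week values were within the 2-week range, at a log2FC of 0.58 ± 0.57. AQP3, a glycerol and water channel, had a log2FC of 0.50 ± 0.18 (unadjusted p = 0.0211), and MID1IP1, which activates acetyl-CoA carboxylase, 1.15 ± 0.53. Without rabbit 59 these were 0.40 and 0.62.

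**Figure D4:**
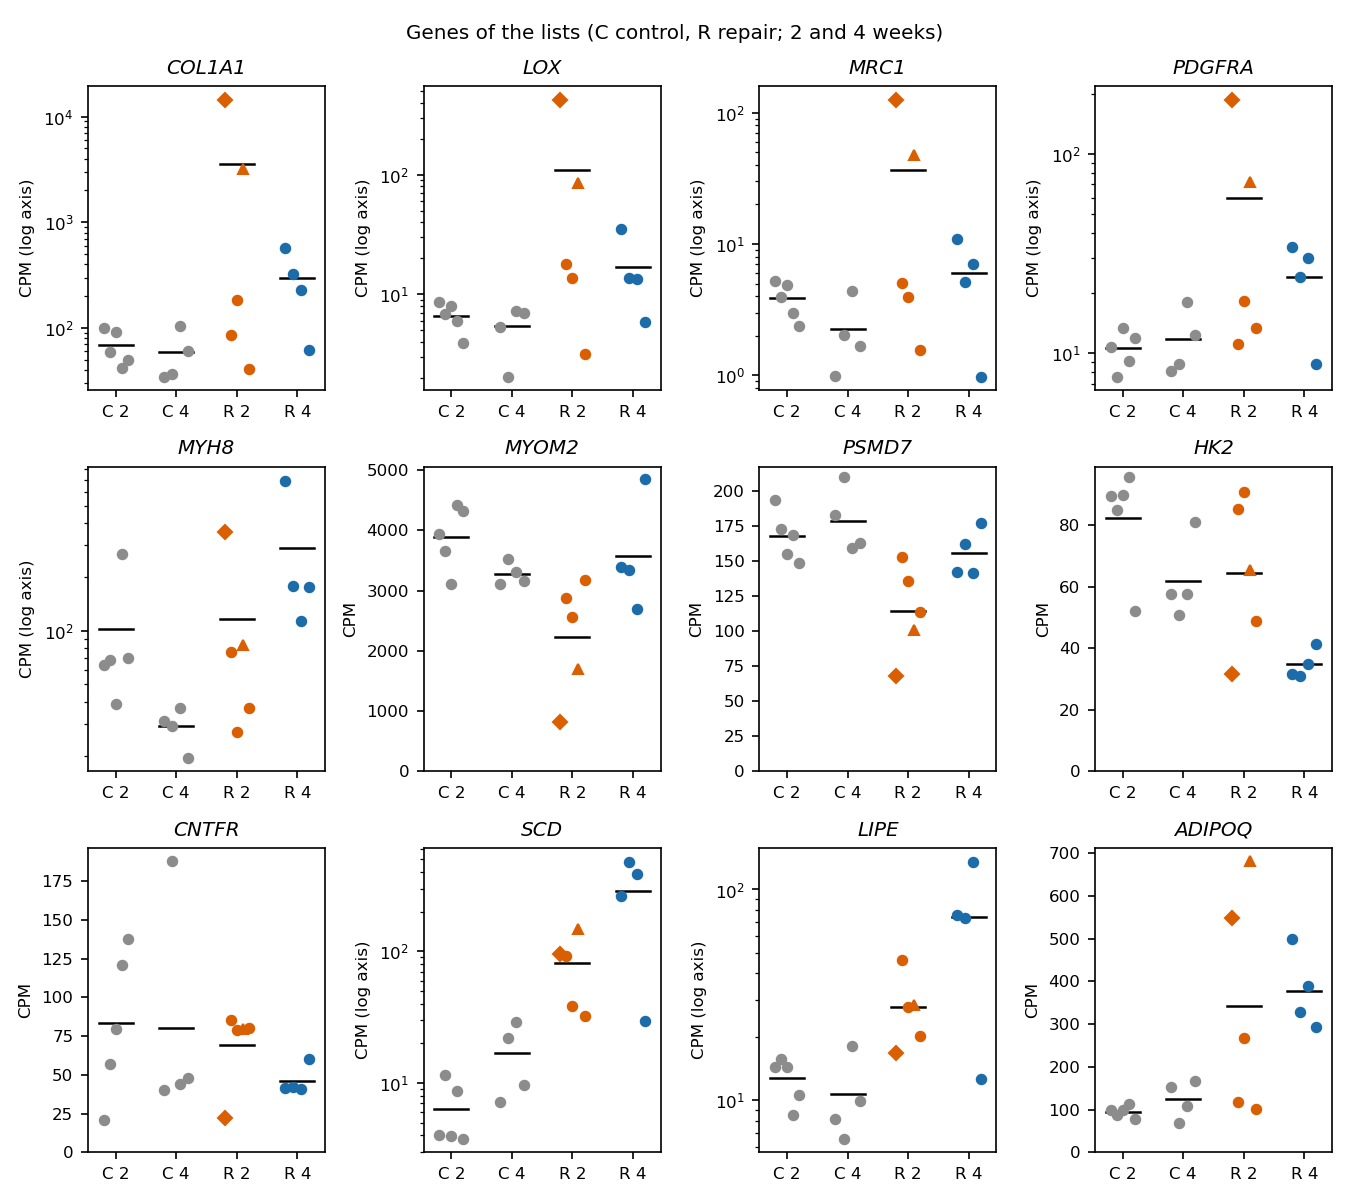
CPM of 12 genes of the lists and of the DESeq2 calls, by shoulder and time (C control, R repair, 2 or 4 weeks; n = 5 or 4), each point 1 library and each bar the group mean, with the diamond for rabbit 59 and the triangle for rabbit 62 among repaired muscles of 2 weeks; log axes are labelled. COL1A1, LOX, MRC1 and PDGFRA are highest in rabbits 59 and 62, while SCD and LIPE are high in 3 of 4 muscles at 4 weeks and low in rabbit 68.

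Endothelial genes (25 tested) had a median log2FC of -0.01, with VWF, made by endothelium, at 525 CPM in rabbit 59 and 64.9 to 202 CPM elsewhere, and ARHGEF15 at a log2FC of 0.30. Smooth muscle and pericyte genes (10 tested) had a median of 0.09, and 0.30 without rabbit 59, where ACTA2 and ACTG2, smooth muscle actins, each had a log2FC of 0.57. KIF20B, a kinesin of cytokinesis, was the only gene of 451 list genes (0.222%) without overlap among all 9 libraries, beside 1.56% of all genes. Without rabbit 59 there were 5 (1.11%), beside 2.99% of all genes, with KIF20B, JUN and ACSL4 lower and MYH8 and IRF4 higher at 4 weeks. ACSL4, an acyl-CoA synthetase and a member of the lipid list, was chosen after its values were seen. It stood at 37.9 CPM in rabbit 59 and 60.9 to 78.9 CPM in the other 2-week muscles. At 4 weeks ACSL4 was at most 52.2 CPM, with rabbit 59 below every 4-week muscle. KIF20B stood at 5.996, 2.19, 1.93, 2.68 and 1.98 CPM and then at 1.56, 1.34, 1.01 and 1.76 CPM, and its list of 29 cell cycle genes had a median of -0.27, or -0.09 without rabbit 59. JUN, an immediate early gene, had a log2FC of -0.37, and -0.60 without rabbit 59. IRF4, a lymphocyte transcription factor, was at 1.58 CPM in rabbit 59, 0.0967 to 0.577 CPM in the other 2-week muscles and 0.684 to 1.09 CPM at 4 weeks.

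Over the 22 lists, 451 different genes were tested and 0 were called, while 7 (1.55%) were at an unadjusted p under 0.05 beside 3.10% of all genes. Without rabbit 59 there were 10 (2.22%) beside 4.35%. The 95% interval lay within 1 either way for 31.0% of list genes, and for 44.1% without rabbit 59. For most of them a change of 2-fold or more in at least 1 direction is thus within the interval. A negative median was found in 15 of 22 lists, in 7 without rabbit 59 and in 5 without rabbits 59 and 62. The symbols used come in part from 1 large co-expression module that the study built on its repaired muscles, so the lists are not a random part of the genome.

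**Figure D5:**
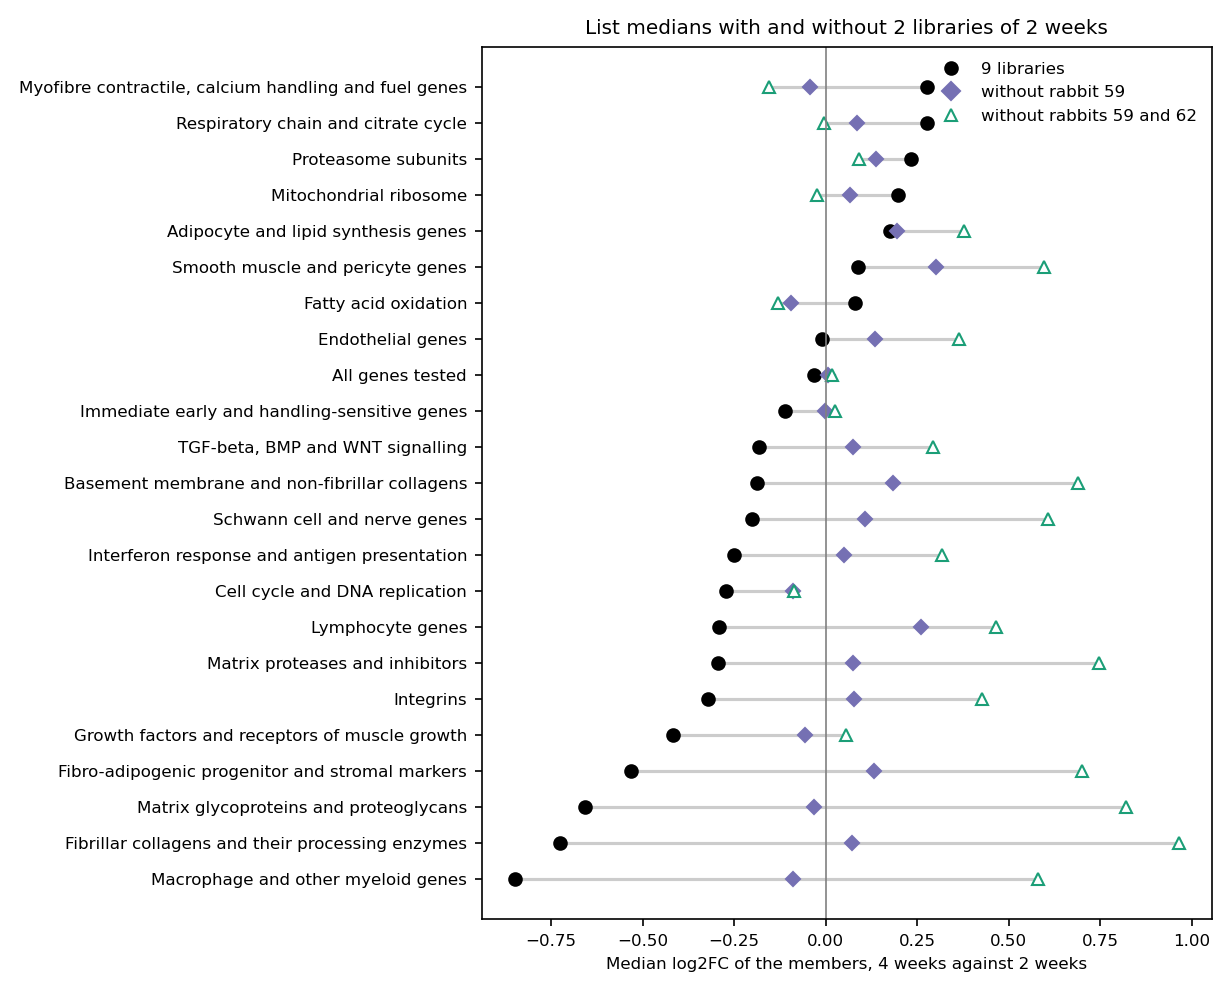
Median log2FC of the members of each list at 4 against 2 weeks with all 9 libraries (black circles), without rabbit 59 (diamonds) and without rabbits 59 and 62 (open triangles). Fibrillar collagens go from -0.73 to 0.07 and 0.97, whereas proteasome subunits stay between 0.09 and 0.23.

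Leaving rabbit 59 out and testing with DESeq2 called 34 genes, 16 of them also among the 21 called with it, and 8 of the 34 have a symbol. These were chosen after their values were seen. Beside TPPP, MYH8, SH3RF1 and SMARCA1 they were HK2, CNTFR, SPTB and OSBPL11. HK2, the hexokinase of muscle that starts glycolysis, stood at 31.8, 85.2, 90.8, 65.6 and 49.02 CPM at 2 weeks and at 31.8, 31.1, 34.9 and 41.5 CPM at 4 weeks. Apart from rabbit 59, all 2-week muscles lay above all 4-week muscles, and the 4-week muscles lay below every control, which held 50.7 to 95.7 CPM. Its log2FC was -0.81 ± 0.29 (-0.40 in controls), or -1.03 without rabbit 59 (adjusted p = 0.625 in limma-voom and 0.00643 in DESeq2).

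CNTFR, the receptor for ciliary neurotrophic factor, was even in rabbits 60, 61, 62 and 64 at 85.8, 78.8, 79.7 and 80.3 CPM and at 22.3 CPM in rabbit 59, and then at 41.6, 41.9, 41.1 and 60.4 CPM at 4 weeks. Rabbit 59 lay below and its group mates above the 4-week muscles, so the log2FC went from -0.47 ± 0.37 to -0.82. Controls spanned 21.1 to 188 CPM, a wider range than that of the repaired muscles. SPTB, the beta spectrin of the membrane skeleton, and OSBPL11, an oxysterol-binding protein relative, had a log2FC of -0.69 and -0.63 without rabbit 59.

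The smallest p-value belonged to ENSOCUG00000005767, which has no symbol here. It stood at 65.9, 186, 76.8, 144 and 100.6 CPM at 2 weeks and at 26.1, 13.8, 21.5 and 15.8 CPM at 4 weeks. There was no overlap, with a log2FC of -2.51 ± 0.32 (adjusted p = 0.193) and of -2.67 without rabbit 59 (adjusted p = 0.0660), and DESeq2 gave an adjusted p of 9.16e-09. The control muscles of the same rabbits were also lower at 4 weeks, at 17.4 to 89.2 CPM and then 5.22 to 16.1 CPM, a log2FC of -2.31, and the difference between the shoulders was -0.19 ± 0.66. ENSOCUG00000003809 had a log2FC of -1.02 ± 0.20, and ENSOCUG00000015056 and ENSOCUG00000007789 of 2.44 ± 0.42 and 1.00 ± 0.20, each without overlap and each called by DESeq2.

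The control muscles are the right shoulders of the same rabbits, whose left shoulders had been operated on. Of 11377 genes tested in these controls, 0 were called by limma-voom (0%) and 494 (4.34%) were at an unadjusted p under 0.05. A log2FC beyond 1 either way was found for 840 genes (6.63%) in repaired and 403 (3.54%) in control muscle. The count in repaired muscle includes rabbit 59 and was not made without it. The biological coefficient of variation over both times was 0.471 in repaired muscle, 0.338 without rabbit 59 and 0.274 in controls. The part of this spread in the counts was not tested. The change in repaired muscle minus that in control muscle was called for 0 of 12798 genes, with 191 (1.49%) at an unadjusted p under 0.05, 382 (2.98%) with the rabbit as replicate block and 222 (1.81%) without the repaired muscle of rabbit 59.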

How the data were processed

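Polyadenylated RNA of muscle pieces was sequenced as stranded single reads. The authors aligned them with STAR and counted genes of the rabbit assembly OryCun2.0 in its Ensembl annotation with RSEM, and they deposited expected counts per gene with no normalization. The submitters' processing notes also name FastQC, edgeR and limma. The table holds 23669 genes, all 34 libraries were matched to labels and 0 columns were left unused.

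Groups came from the labels. Genes with CPM over 1 in at least 1 compared library were scaled by TMM in edgeR 4.0.16 and tested by voom and moderated statistics in limma 3.58.1, under R 4.3.3, with Benjamini-Hochberg adjustment, on the 9 repair libraries, the 9 controls, or all 18 for the difference between the shoulders. Genes under an adjusted p of 0.05 were called, and called genes whose log2FC exceeded 1 in size were DE. log2FC is 4 minus 2 weeks, ± is the standard error, and intervals are 95%. For edgeR and DESeq2 1.42.0 the expected counts were rounded to whole numbers. DESeq2 gave no adjusted p for 1314 genes, which were kept out of its calls. CPM values are on TMM-scaled library sizes. Scripts were tested on simulated data. Figures were drawn with matplotlib 3.10.9 under Python 3.11.15.

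The deposited table gives identifiers only. Symbols for 3310 of them came from the study's supplementary tables of tested genes (1863) and of co-expression modules (1447 more, nearly all from 1 module). Both were held here only in part, which limits the genes that could be named or listed, and their other columns were not used. Named genes were, among those that have a symbol and average 1 or more on the log2 CPM scale, and in each direction, DE without overlap or else the 12 of smallest p, up to 4 members of each list by p, cell type markers, and the 2 identifiers without a symbol of smallest p in each direction. The comparison, members and lists were chosen with earlier results of these data known.

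Replicate numbers are rabbits, and both shoulders of a rabbit were sampled, so the design itself pairs repair and control libraries. Deviations from the group means correlated within 9 pairs at 0.02 to 0.40 (median 0.17), over 0.1 in 8 of them, and the rabbit was a block in an alternative fit of the difference. Differences between the shoulders given for single genes come from the fit without this block. No pairing exists between 2 and 4 weeks, which hold different rabbits. Other alternatives were each library left out, other filters and size factors, sample quality weights, fits on more libraries, edgeR and DESeq2. P-values measure the spread between rabbits.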

Additional observations from a re-analysis of the deposited data

Results flagged for a closer look

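Of 194 groups of 4 or 5 values examined, 17 had a library whose gap to its nearest neighbour, as a share of the group's range, was above Dixon's 95% critical value for a group of that size, where chance gives about 1 in 20. The groups held list levels, log2 CPM of named genes, and each library's TMM factor, genes over 1 CPM and position on component 1. None of the last measures was flagged at either time. In the 2-week repaired muscles rabbit 59 was the distant library 7 times, but SPTB, CNTFR and OSBPL11 were named because DESeq2 called them once rabbit 59 was left out, so the chance rate does not apply to these 3 genes. Its ratio was 0.792 for the level of the cell cycle list, 0.773 for CNTLN, 0.716 for COX10, 0.729 for KIF20B, 0.711 for SPTB, 0.937 for CNTFR and 0.766 for OSBPL11. In the 4-week repaired muscles there were 10 such groups. Rabbit 68 was distant in the level of the TGF-beta, BMP and WNT list (0.849) and of the lipid list (0.863), and in TCAP (0.871), COX10 (0.959) and CNTFR (0.949). Rabbit 66 was distant in the interferon list (0.871) and in CNTLN (0.873), and rabbit 63 in WNT16 (0.889), MMP12 (0.913) and SPTB (0.837).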

How the results depend on the processing

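In repaired muscle limma-voom called 0 genes under every filter, size factor, wider set of libraries and left-out library, with 254 to 534 genes at an unadjusted p under 0.05 as each library was left out (lowest without rabbit 62). Exceptions were DESeq2 with 21 called and 15 DE, DESeq2 without rabbit 59 with 34 and 22, and sample quality weights with 1 and 1, which was ENSOCUG00000005767. The genes at an unadjusted p under 0.05 were 750 with DESeq2, 889 with quality weights, 709 with 18 libraries, 1081 with 33 libraries and 776 without rabbits 59 and 62, beside 393. In controls 0 to 1 genes were called and DE as each library was left out (1 without the 4-week control of rabbit 67), with 362 to 836 at an unadjusted p under 0.05 (highest without rabbit 68), and DESeq2 called 5, all 5 DE. Of these 5, ENSOCUG00000005767 and ENSOCUG00000016603 (log2FC of -2.40 and -3.68 in controls) were also among the 21 called in repaired muscle, where they were lower too. ENSOCUG00000017120 (-1.88 in controls) was among the 34 called without rabbit 59, at -1.86. For the difference DESeq2 called 2, both DE, at extreme log2FC values of 21 and -21.8. Neither was called for the difference by limma-voom or edgeR. With the rabbit as replicate block 0 genes were called, with 382 at an unadjusted p under 0.05, or 303 with an estimated correlation of 0.156, beside 191 without the block, 321 with DESeq2, 372 with no filter and 421 with quality weights. The block was run for this difference alone and changed no call there. Leaving out rabbits 59 and 62, chosen after seeing the data, moved list medians to 0.97 for fibrillar collagens, 0.82 for matrix glycoproteins, 0.75 for matrix proteases, 0.70 for stromal, 0.69 for basement membrane, 0.61 for Schwann cell, 0.60 for smooth muscle, 0.58 for myeloid, 0.47 for lymphocyte, 0.43 for integrin, 0.32 for interferon and -0.16 for myofibre genes, and the other 10 lists lay between -0.13 and 0.38. As each library was left out, the log2FC ran from -1.83 to 0.16 for COL1A1, -0.76 to 0.0134 for DCN, -0.84 to 0.55 for C1QC, -0.91 to 0.0169 for PDGFRA and -0.66 to 0.0327 for VWF, each turning positive without rabbit 59, and DCN (0.0120) and C1QC (0.48) also without the 4-week muscle of rabbit 68. With quality weights it turned to 0.48 for COL1A1, 0.11 for DCN, 0.0725 for CTSK, 0.96 for C1QC, 0.26 for PDGFRA and -0.0497 for DES. Without rabbits 59 and 62 it turned to 1.39 for COL1A1, 0.55 for DCN, 0.67 for LOX, 0.51 for CTSK, 0.24 for CD163, 0.59 for MRC1, 1.28 for C1QC, 0.30 for LCP1, 0.65 for PDGFRA, -0.0271 for TCAP, -0.0983 for DES and 0.28 for VWF. Of 72 named genes 60 kept their sign under every alternative. Depth was similar in all libraries, and genes near 1 CPM rest on few reads.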
